A study of Mus musculus with 12 samples.

Results

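Hedgehog signalling was followed through 9 genes in the fetal mouse testis: the ligands Dhh and Ihh, the receptor Ptch1, the transducer Smo, the transcription factors Gli1, Gli2 and Gli3, the inhibitor Hhip and the co-receptor Gas1. The members are all probe sets that the platform annotation assigns to 1 of these genes and to no other, which gave 9 of the 18193 genes so named and 22 of the 45101 probe sets on the array. The study profiled testes of 129Sv and B6 mouse embryos at stage E15.5, wild type or knockout for Dmrt1, a DM-domain transcription factor of the gonad. There were 12 Affymetrix arrays in 4 groups of 3, with total RNA labelled with biotin. All 4 groups share the labelled age and tissue, and the labels separate them by strain and Dmrt1 genotype. The last number of the sample titles, whose meaning is not given, runs from 1 to 6 in B6 and from 7 to 12 in 129Sv, so what it stands for cannot be told apart from strain in any comparison between strains. The series text calls the removal of Dmrt1 conditional while the samples are labelled as knockouts, and no Cre driver is named in the labels. The growth protocol gives a postnatal stage, P28, for the embryos. The labels do not say whether the 3 arrays of a group came from separate embryos or litters, so p-values measure the spread between these arrays, which may be technical.

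In the developing testis, Sertoli cells secrete Desert hedgehog, the product of Dhh, which binds Patched receptors on fetal Leydig and peritubular cells. Without ligand, Patched holds Smoothened inactive, and Gli proteins act mainly as repressors; when ligand binds, Smoothened acts through the primary cilium and Gli proteins activate transcription. Ptch1, Gli1 and Hhip are themselves induced by the pathway in many tissues, so their RNA is commonly read as a measure of its activity.

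The proximal promoters of 4 members are shown: the ligand Dhh, the pathway-induced Ptch1 and Hhip, and Gas1, the member with the largest strain difference. Of these only Gas1 passed a test in the main fit. Gli2 and Smo, which passed between knockouts, have promoters that were searched but are not shown. Each sequence holds the 250 bases upstream of the annotated start, read 5′ to 3′ on the gene's strand from RefSeq, build GRCm38.p6. Capitals mark the GC box, GGGCGG or its reverse complement CCGCCC. All 4 genes lie on the minus strand, at chr15:98898541-98898790 for Dhh, chr13:63565736-63565985 for Ptch1, chr8:80058009-80058258 for Hhip and chr13:60177536-60177785 for Gas1.
Dhh: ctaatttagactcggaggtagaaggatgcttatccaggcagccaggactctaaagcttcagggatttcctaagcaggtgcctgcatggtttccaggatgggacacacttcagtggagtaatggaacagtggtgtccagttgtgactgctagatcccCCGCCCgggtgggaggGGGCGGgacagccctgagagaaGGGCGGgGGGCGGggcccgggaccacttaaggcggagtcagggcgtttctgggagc
Ptch1: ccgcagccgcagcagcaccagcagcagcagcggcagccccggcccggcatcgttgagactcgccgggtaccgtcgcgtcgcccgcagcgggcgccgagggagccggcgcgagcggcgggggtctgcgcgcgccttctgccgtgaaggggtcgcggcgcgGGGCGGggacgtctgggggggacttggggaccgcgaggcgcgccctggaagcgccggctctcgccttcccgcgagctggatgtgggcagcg
Hhip: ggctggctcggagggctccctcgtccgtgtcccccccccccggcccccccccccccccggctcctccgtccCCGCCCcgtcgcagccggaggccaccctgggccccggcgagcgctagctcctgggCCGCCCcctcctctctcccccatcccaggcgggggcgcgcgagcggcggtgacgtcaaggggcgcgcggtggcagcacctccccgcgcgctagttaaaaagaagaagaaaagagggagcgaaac
Gas1: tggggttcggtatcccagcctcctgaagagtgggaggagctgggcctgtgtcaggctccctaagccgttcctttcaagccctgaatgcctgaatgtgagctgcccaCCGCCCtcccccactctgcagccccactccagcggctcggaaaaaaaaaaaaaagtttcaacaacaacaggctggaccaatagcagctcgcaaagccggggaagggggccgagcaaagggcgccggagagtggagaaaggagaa
The reference table held a promoter for 8 of the 9 members. The promoter of Dhh held 4 GC boxes, that of Hhip 2, and those of Ptch1 and Gas1 1 each. By base composition the 4 shown formed 2 pairs, while Gli2, Smo, Ihh and Gli3 lay between them, at 67.2% to 72.8% G and C. Ptch1 had 78.4% G and C with 41 CpG dinucleotides and Hhip had 76% with 28, whereas Dhh had 59.6% with 9 and Gas1 had 58.8% with 10. The median over 32851 RefSeq promoters of the same length was 52.4% and 6 CpG dinucleotides. On either strand, GACCACCCA, the consensus bound by Gli proteins, matched none of the 8 members' windows. Neither ACANTGT, the core of the DM-domain motif, nor TATAAA, the TATA box, matched any of them. These motifs were present in 0.225%, 6.47% and 12.4% of all promoters, and GGGCGG in 32.7%. No GC box shown therefore shares bases with another searched motif, and a missing match says only that these letters are not in this window.

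The arrays were alike in overall level, with median intensities of 17.34 to 19.0 and correlations of log2 values between 0.9828 and 0.998 within groups. Intensities are GCRMA values on a linear scale, and a probe set was tested if it reached 16 (a log2 value of 4) on at least 3 arrays, as 24820 did. Dmrt1 itself measured 1183, 924 and 1014 in the 129Sv wild type against 173, 145 and 181 in the 129Sv knockout. In B6 it measured 795, 1092 and 1066 in the wild type against 86.4, 64.0 and 72.9 in the knockout, so every array followed its label. All 11 Sertoli cell markers, the 6 fetal Leydig cell markers with a probe set and the 5 germ cell markers with a probe set exceeded 16 on every array, as did 7 of 8 peritubular and interstitial markers. As a sign of RNA degradation, the Actb control probes near the 3′ end were divided by those near the 5′ end. This Actb ratio lay between 1.99 and 2.79 on 9 arrays. It was 3.91 on wild-type replicate 2 of 129Sv, 5.24 on knockout replicate 1 of 129Sv and 6.30 on knockout replicate 3 of B6.

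Of the 22 member probe sets, 17 from 8 genes were tested. The 5 others stayed under 16 on every array: the only probe set of Ihh (4.31 to 6.69), a ligand known from bone and gut, 1439663_at (5.16 to 11.6) and 1450824_at (4.93 to 7.12) of Ptch1, 1442215_at of Smo (4.52 to 7.19) and 1450525_at of Gli3 (4.83 to 6.88). These values lie in the range where the arrays carry little signal, so they set no level for Ihh. The second probe set of Dhh, 1422127_at, ran from 14.9 to 23.4 and exceeded 16 on 6 of the 12 arrays. The remaining 16 tested probe sets were above 16 on all 12 arrays.

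**Figure D1:**
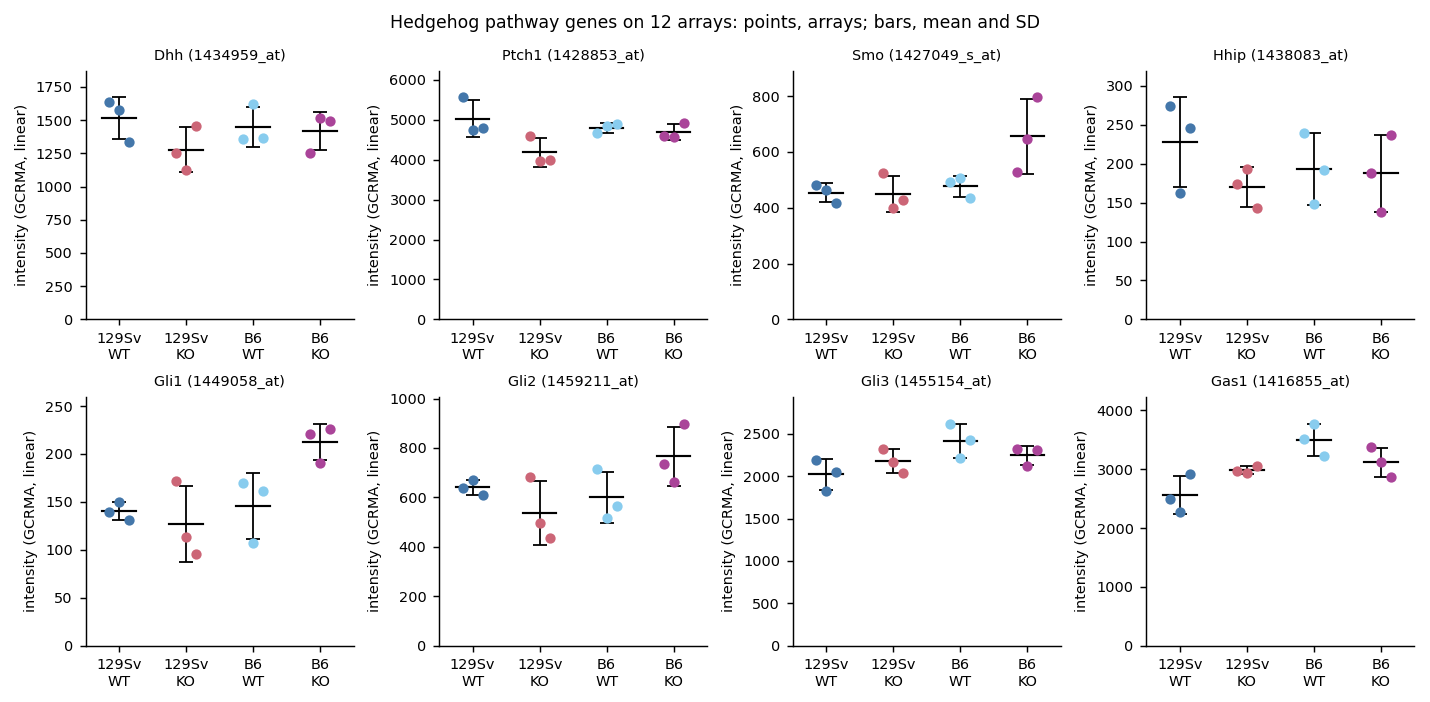
Linear GCRMA intensity (vertical axes, from 0) of 1 probe set for each of 8 Hedgehog genes in 129Sv and B6 wild-type (WT) and Dmrt1 knockout (KO) testes; points are arrays, bars the mean and SD of 3 arrays. Gli1 lies between 191 and 226 in the B6 knockout and between 95.7 and 172 in the other 9 arrays, while Dhh lies between 1127 and 1633 throughout.

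The ligand Dhh was present at similar levels in all groups. Its probe set 1434959_at measured 1633, 1576 and 1337 in the 129Sv wild type and 1252, 1127 and 1457 in the 129Sv knockout. In B6 it measured 1361, 1622 and 1363 in the wild type and 1251, 1513 and 1491 in the knockout. The arrays of all 4 groups overlapped. The log2 difference between knockout and wild type was -0.25 ± 0.13 (SE, n = 3 a group) in 129Sv (limma, adjusted p = 0.368), with a 95% interval from -0.53 to 0.03. In B6 it was -0.03 ± 0.13, with an interval from -0.31 to 0.25 (limma, adjusted p = 0.91). Because testes were measured whole, fewer cells of a type and less RNA per cell cannot be told apart for this or any later gene.

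Ptch1, the receptor and a pathway-induced gene, was slightly lower in the 129Sv knockout, without passing the test. Probe set 1428853_at measured 5562, 4746 and 4783 in the 129Sv wild type against 4597, 3961 and 3980 in the knockout. These groups did not overlap. In B6 the wild type measured 4660.1, 4841 and 4903 and the knockout 4598, 4569 and 4926, which overlapped. The log2 difference was -0.27 ± 0.09 in 129Sv, with a 95% interval from -0.45 to -0.08 (limma, adjusted p = 0.103), and -0.03 ± 0.09 in B6, with an interval from -0.22 to 0.15 (adjusted p = 0.855). The 129Sv difference passed in 3 of 26 alternative fits, with array weights, with the Actb ratio as a covariate and without the 2 arrays of the highest Actb ratio (lowest adjusted p = 0.0309).

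Smo, the membrane transducer that Patched holds in check, was read by a pair of probe sets that did not move together. Probe set 1427049_s_at, whose suffix marks probes that can match more than 1 transcript, measured 490.4, 506 and 434 in the B6 wild type and 526, 647 and 795 in the B6 knockout. Those groups did not overlap, and the log2 difference was 0.44 ± 0.16 (limma, adjusted p = 0.141). In 129Sv the same probe set measured 483, 463 and 417 in the wild type and 524, 398 and 426 in the knockout, a log2 difference of -0.02 ± 0.16 (adjusted p = 0.971). The other probe set, 1427048_at, ran from 117 to 227 in 129Sv and from 192 to 279.9 in B6, and its knockout differences were -0.27 ± 0.20 and -0.19 ± 0.20, neither past the threshold (adjusted p = 0.577 and 0.616).

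Gli1, the activator among the Gli factors, stood highest in the B6 knockout. It measured 169, 107 and 161 in the B6 wild type and 221, 191 and 226 in the B6 knockout. In 129Sv it measured 139.7, 150.3 and 131 in the wild type and 172, 113 and 95.7 in the knockout. The B6 groups did not overlap and the 129Sv groups did. The log2 difference in B6 was 0.57 ± 0.23, with a 95% interval from 0.08 to 1.06, and did not pass (limma, adjusted p = 0.173). In 129Sv it was -0.19 ± 0.23, with an interval from -0.68 to 0.30 (limma, adjusted p = 0.776).

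Gli2, the main activator downstream of Smoothened, had the same order of groups in its pair of probe sets. Probe set 1459211_at measured 716, 518 and 567 in the B6 wild type and 737, 664 and 899 in the B6 knockout. In 129Sv it measured 639, 671 and 611 in the wild type and 684, 495 and 436 in the knockout. Wild type and knockout overlapped in each strain. The log2 differences were 0.36 ± 0.18 in B6 and -0.28 ± 0.18 in 129Sv (limma, adjusted p = 0.267 and 0.5). The second probe set, 1446086_s_at, gave 0.36 ± 0.19 and -0.33 ± 0.19 (adjusted p = 0.29 and 0.413).

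Gli3, which acts mostly as a repressor, differed little by genotype. Probe set 1455154_at measured 2195, 1828 and 2046 in the 129Sv wild type and 2326, 2168 and 2038 in the knockout, a log2 difference of 0.11 ± 0.10 (limma, adjusted p = 0.682). In B6 it measured 2616, 2212 and 2433 in the wild type and 2318, 2121 and 2307 in the knockout, a difference of -0.10 ± 0.10 (adjusted p = 0.565). Both pairs of groups overlapped. The other probe set, 1456067_at, measured 1009, 978 and 1022 in the B6 wild type against 859.6, 764 and 648 in the B6 knockout, without overlap, and its difference of -0.41 ± 0.17 did not pass (adjusted p = 0.192). The same probe set gave 0.18 ± 0.17 in 129Sv (adjusted p = 0.689).

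Hhip, the inhibitor that binds Hedgehog ligands outside the cell and is induced by the pathway, measured lower on average in the 129Sv knockout by all 4 of its probe sets, and none passed the test. Probe set 1455277_at measured 201, 164 and 196 in the 129Sv wild type and 144, 111 and 120.5 in the knockout. These groups did not overlap, and the log2 difference was -0.58 ± 0.25, with a 95% interval from -1.13 to -0.03 (limma, adjusted p = 0.249). Probe set 1437933_at measured 86.2, 56.3 and 87.0 against 39.3, 48.6 and 42.5, also without overlap, a difference of -0.79 ± 0.39 (adjusted p = 0.328). The other probe sets gave -0.40 ± 0.25 for 1438083_at, with overlap, and -0.25 ± 0.21 for 1421426_at, without overlap, in 129Sv (adjusted p = 0.488 and 0.637). In 129Sv, 1437933_at passed in 2 of 25 alternative fits, with array weights and with only the groups compared (limma, lowest adjusted p = 0.0197). Probe set 1455277_at passed in 1 of 25, with array weights (adjusted p = 0.0241). In B6 the 4 log2 differences ran from -0.69 to 0.26, with wild type and knockout overlapping for each probe set (lowest adjusted p = 0.319). In B6, wild-type replicate 2 was the lowest of the 3 wild-type arrays for each of the 4 probe sets.

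Gas1 is a membrane-anchored co-receptor that promotes Hedgehog binding in embryonic tissues. It was the only member with a call between knockout and wild type, by 1 of its 3 probe sets and in 129Sv only. Its probe set 1448494_at measured 731, 724 and 762 in the 129Sv wild type and 1119, 1052 and 1220.1 in the 129Sv knockout. The groups did not overlap. The probe set rose 1.53-fold in the 129Sv knockout, a log2 difference of 0.61 ± 0.16 with a 95% interval from 0.27 to 0.95 (limma, adjusted p = 0.0399). In B6 it measured 1647, 1942 and 1453 in the wild type and 1601, 1357 and 1004 in the knockout, which overlapped, and the difference was -0.36 ± 0.16 (limma, adjusted p = 0.204). The other probe sets of the gene were also higher in every 129Sv knockout array than in any 129Sv wild-type array, by 0.23 ± 0.10 for 1416855_at and 0.64 ± 0.26 for 1456322_at, without passing (adjusted p = 0.271 and 0.219). In B6 they gave -0.17 ± 0.10 and -0.42 ± 0.26 (adjusted p = 0.357 and 0.369).

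The Gas1 call in 129Sv sat close to the threshold and held in 14 of its 25 alternative fits. It was lost when any of the 6 arrays of 129Sv, B6 wild-type replicate 1 or B6 knockout replicate 2 was left out, with log2 differences from 0.55 to 0.66 and adjusted p from 0.0534 to 0.129. The sample titles carry a number before the strain code whose meaning the labels do not give. It is 7 for the 3 knockout arrays and for wild-type replicate 2 of 129Sv, and 11 for wild-type replicates 1 and 3. With that number as a covariate the difference was 0.64 and its adjusted p 0.26. Among arrays with the number 7, the wild type measured 724 and the knockouts 1052 to 1220.1, with 1 wild-type array and so no test. In the same comparison 1 of 11 Sertoli cell markers, Cst9, fell, and no germ cell, fetal Leydig cell, peritubular, endothelial, macrophage or red cell marker passed the threshold. Summed over the peritubular and interstitial list, intensities ran from 16650 to 18260 in the 129Sv wild type and from 16590 to 18940 in the knockout. Of 5 epithelial markers measured, Cdh1 rose and Pax8 fell, and the summed list ran from 1912 to 2349 in the wild type and from 4013 to 4413 in the knockout. Rspo1 of the ovarian list and Th of the neuronal list rose as well. The part of these shifts in the Gas1 result was not tested.

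**Figure D2:**
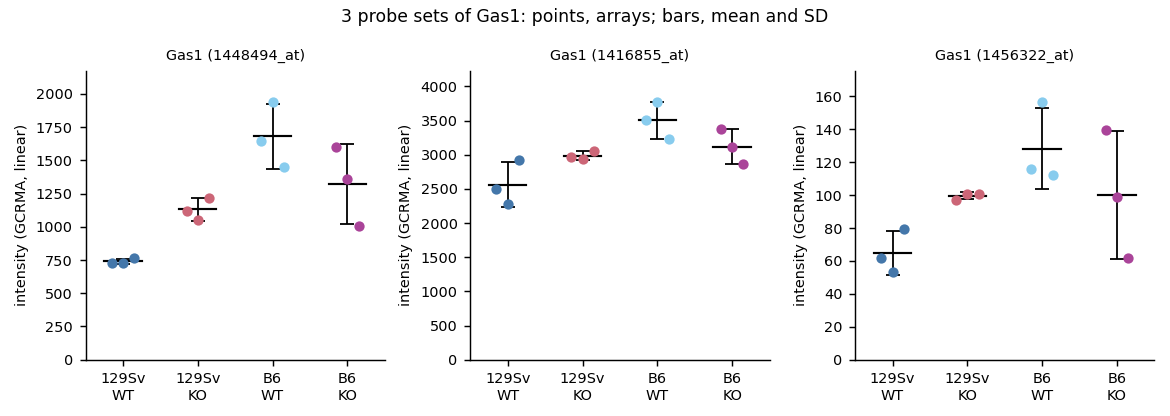
Linear GCRMA intensity (vertical axes, from 0) of the 3 probe sets of Gas1 in 129Sv and B6 wild-type (WT) and Dmrt1 knockout (KO) testes; points are arrays, bars the mean and SD of 3 arrays. In each panel the 3 arrays of the 129Sv wild type lie below those of the 129Sv knockout and below those of the B6 wild type, and for 1448494_at they sit between 724 and 762.

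Few member probe sets passed between knockout and wild type. In 129Sv, 1 of 17 tested member probe sets passed at an adjusted p under 0.05 (5.88%), near the share of all 24820 tested probe sets that did (5.24%, with 2.74% higher in the knockout). The arrays of wild type and knockout did not overlap for 7 of the 17, against 26.9% of all probe sets, and 5 were below an unadjusted p of 0.05, against 17.4%. In B6, 0 of 17 passed by limma, against 4.61% of all probe sets, 4 were below an unadjusted p of 0.05, against 21.4%, and 3 did not overlap, against 24.8%. With array weights in limma, 1 passed. The median log2 difference of the members was -0.25 in 129Sv and -0.10 in B6, beside -0.01 and 0.01 over all probe sets tested.

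**Figure D3:**
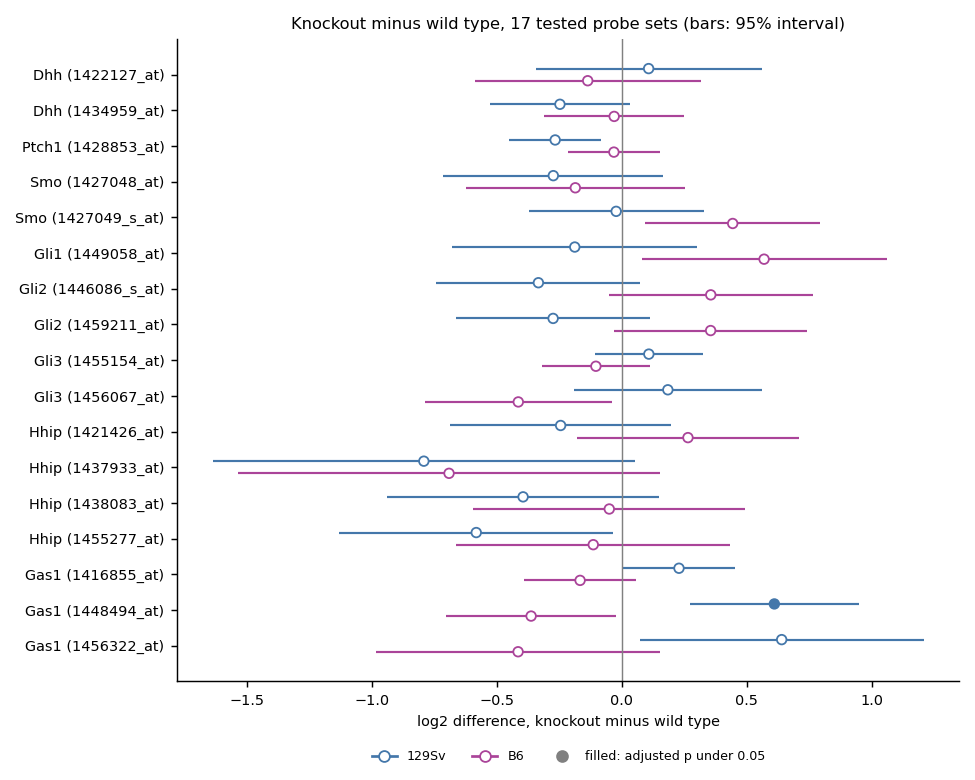
Log2 difference, knockout minus wild type (horizontal axis), of the 17 tested member probe sets in 129Sv (blue) and B6 (purple), with 95% intervals from the fit; filled points passed an adjusted p of 0.05. The single filled point is Gas1 1448494_at in 129Sv at 0.61, and the intervals of Dhh include 0 in both strains.

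The knockout effects of the strains were also compared directly, as the effect in 129Sv minus that in B6. None of the 17 member probe sets passed by limma, while 0.298% of all probe sets did; 7 of the 17 were below an unadjusted p of 0.05, against 13.1%, and 1 passed with array weights. Gas1 1448494_at came closest, at 0.97 ± 0.22 (adjusted p = 0.0899), and without B6 knockout replicate 1 it was 1.13 with an adjusted p of 0.0384. For the other probe sets of Gas1 the difference was 0.40 ± 0.15 and 1.06 ± 0.37 (adjusted p = 0.277 and 0.257). Gli1 gave -0.76 ± 0.32 and Gli2 1446086_s_at -0.69 ± 0.27 (adjusted p = 0.344 and 0.299). Averaged over the strains, 0 of 17 passed by limma against 9.76% of all probe sets, with 2 below an unadjusted p of 0.05, against 23.0%, and 3 passing with array weights. Those 2 were Ptch1, at -0.15 ± 0.06 (adjusted p = 0.157), and Hhip 1437933_at, at -0.74 ± 0.28 (adjusted p = 0.121). Without B6 wild-type replicate 2 the Hhip value was -0.95 and passed (adjusted p = 0.0336).

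More member probe sets passed between strains than between genotypes, and the same held over the whole array. Of all probe sets, 13.6% passed between wild types and 30.0% between knockouts, against 5.24% by genotype in 129Sv and 4.61% in B6. Among wild types, all 3 probe sets of Gas1 were lower in 129Sv than in B6. The values of 1448494_at given above, 724 to 762 in 129Sv and 1453 to 1942 in B6, did not overlap, and the probe set was 2.26-fold lower in 129Sv, a log2 difference of -1.18 ± 0.16 (limma, adjusted p = 0.000335). It passed in each of the 24 alternative fits that held it. Probe set 1456322_at measured 61.9, 53.2 and 79.3 in 129Sv against 116, 157 and 112 in B6, a difference of -0.99 ± 0.26 (limma, adjusted p = 0.0253). Probe set 1416855_at measured 2499, 2272 and 2917 against 3509, 3774 and 3224, a difference of -0.46 ± 0.10 (limma, adjusted p = 0.0112). Neither pair of groups overlapped.

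These calls on Gas1 differed in how far they depended on single arrays. That of 1416855_at was lost without 129Sv wild-type replicate 2, at -0.37 (adjusted p = 0.0582). That of 1456322_at was lost without replicate 1 or 2 of either wild type, at -1.05 to -0.83 (adjusted p from 0.0565 to 0.115). These comparisons use the same 3 wild-type 129Sv arrays as the knockout comparison in 129Sv. By group means of 1448494_at the order was B6 wild type at 1681 ± 246 (SD, n = 3), B6 knockout at 1321 ± 300.3, 129Sv knockout at 1130.0 ± 84.6 and 129Sv wild type at 739 ± 20.4. Only the last step in that order separated neighbours without overlap of their arrays. Among knockouts the strain difference of this probe set was -0.20 ± 0.16 (limma, adjusted p = 0.353). Without B6 knockout replicate 3 it was -0.39 and passed (adjusted p = 0.0454).

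In total, 3 of 17 member probe sets passed between the wild types, all lower in 129Sv (17.6%), against 13.6% of all probe sets in either direction and 5.35% lower in 129Sv. The 3 read the same gene. The arrays of the strains did not overlap for 7 of 17, against 38.3% of all probe sets. Among the rest, Hhip 1421426_at stood at 0.57 ± 0.21 (adjusted p = 0.0883) and passed without B6 knockout replicate 3 (adjusted p = 0.0344), and Gli3 1456067_at stood at -0.49 ± 0.17 (adjusted p = 0.0795) and passed without 129Sv wild-type replicate 1 (adjusted p = 0.0497). Dhh, Ptch1, Gli1 and both probe sets of Gli2 had log2 differences from -0.03 to 0.11. Between the wild types no Sertoli, fetal Leydig or germ cell marker passed, and of the peritubular and interstitial list 1 gene of 8, Nr2f2, was higher in 129Sv. Epcam and Krt8 of the epithelial list and Sox10 of the neuronal list were higher in 129Sv, and Flt1 of the endothelial list was lower. By the brightest probe set of each gene, 1 gene of the epithelial list passed and neither Nr2f2 nor Flt1 did. The summed germ cell intensity was 15060 to 15370 in 129Sv and 11220 to 12730 in B6. The part of these values in the Gas1 difference was not tested.

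Among knockouts, Gli1, both probe sets of Gli2 and 1 of Smo were lower in 129Sv than in B6. Gli1 measured 172, 113 and 95.7 in 129Sv and 221, 191 and 226 in B6, and was 1.73-fold lower in 129Sv, a log2 difference of -0.79 ± 0.23 (limma, adjusted p = 0.0199). Gli2 1446086_s_at measured 457, 351 and 304 in 129Sv and 589, 516 and 623 in B6, a difference of -0.65 ± 0.19 (limma, adjusted p = 0.0201). Smo 1427049_s_at was lower by 0.54 on the log2 scale, at -0.54 ± 0.16 (limma, adjusted p = 0.0246). In these 3 and in Dhh 1422127_at the arrays of the strains did not overlap, 4 of 17 against 42.0% of all probe sets. Gli2 1459211_at, with the values given above, overlapped and gave -0.52 ± 0.18 (limma, adjusted p = 0.042). The second probe set of Smo, 1427048_at, gave -0.56 ± 0.20 (adjusted p = 0.0537), while Dhh 1434959_at and Ptch1 gave -0.15 ± 0.13 and -0.17 ± 0.09 (adjusted p = 0.397 and 0.148).

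**Figure D4:**
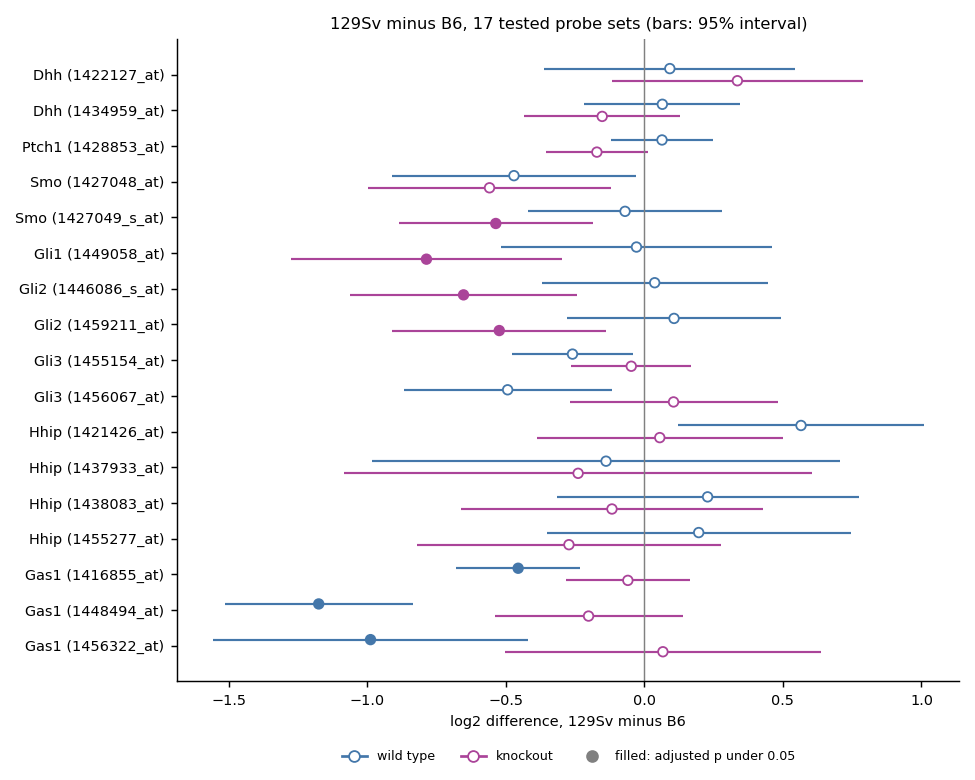
Log2 difference, 129Sv minus B6 (horizontal axis), of the 17 tested member probe sets in wild type (blue) and in Dmrt1 knockout (purple), with 95% intervals from the fit; filled points passed an adjusted p of 0.05. The 3 filled blue points are the probe sets of Gas1, from -1.18 to -0.46, and the 4 filled purple points are Smo 1427049_s_at, Gli1 and both probe sets of Gli2, from -0.79 to -0.52.

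These 4 of 17 (23.5%) were all lower in 129Sv, against 30.0% of all probe sets called in either direction and 12.7% called lower in 129Sv. Strain differences were common among the knockouts over the whole array, and the members' share lay below the background for calls in either direction. The strain difference in knockouts minus that in wild types is the same contrast as the difference of the knockout effects, in which no member passed. For Gas1, Gli1 and Gli2 1446086_s_at its values are given above, and for Smo 1427049_s_at and Gli2 1459211_at it was -0.47 ± 0.23 and -0.63 ± 0.25 (limma, adjusted p = 0.406 and 0.317). The strain effects in wild type and in knockout were thus not shown to differ.

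The calls between knockouts also depended on single arrays. The calls of Gli1 and Gli2 1446086_s_at were lost without 129Sv knockout replicate 2 or 3, with differences of -0.73 to -0.61 for Gli1 (adjusted p from 0.0635 to 0.0938) and -0.62 to -0.52 for Gli2 (adjusted p from 0.0575 to 0.0916). That of Smo 1427049_s_at was lost without replicate 2 or 3 of either knockout, at -0.54 to -0.39 (adjusted p from 0.0583 to 0.0865). That of Gli2 1459211_at was lost in 8 of 12 such fits, those without any 129Sv wild-type array, 129Sv knockout replicate 2 or 3, B6 knockout replicate 1 or 3, or B6 wild-type replicate 3 (adjusted p from 0.0511 to 0.171). Smo 1427048_at passed without 129Sv knockout replicate 3 or B6 knockout replicate 3, at -0.70 (adjusted p from 0.0225 to 0.0421).

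Cell type markers also passed in this comparison, as did 30.0% of all probe sets (12.7% lower and 17.2% higher in 129Sv). A marker gene is counted, here and above, if any of its probe sets passed. The sums take the brightest probe set of each gene. Of the 6 fetal Leydig cell markers measured, 5 (Cyp11a1, Cyp17a1, Fdx1, Hsd3b1 and Nr5a1) were lower in the 129Sv knockout than in the B6 knockout, and the summed list ran from 16460 to 18980 in 129Sv and from 21820 to 31580 in B6. Of the peritubular and interstitial list, 3 of 8 genes (Nr2f2, Pdgfra and Tcf21) were lower in 129Sv, 1 of them by its brightest probe set. The sums of this list were 16590 to 18940 in 129Sv against 18400 to 21680 in B6. All 5 measured germ cell markers were higher in 129Sv, with sums of 13770 to 17110 against 5916 to 9747. Of 11 Sertoli cell markers, 4 were lower in 129Sv, as were 3 of 6 endothelial and 3 of 6 macrophage markers and Alas2 of the red cell list. Of 5 epithelial markers, Cdh1 and Epcam were higher in 129Sv and Pax8 was lower. Rspo1 of the ovarian list and Sox10 and Th of the neuronal list were higher in 129Sv, while Wnt4 and Tubb3 of the same lists were lower. The only measured marker under 16 on every array was the globin gene Hba-a1, and none was at 0. The part of these shifts in the Gli1, Gli2 and Smo differences was not tested. B6 knockout replicate 3, which has the highest Actb ratio, also has the highest Smo 1427049_s_at, Gli1 and Gli2 values of the B6 knockouts. In 129Sv, knockout replicate 1 (ratio 5.24) was likewise the highest of its group for these probe sets. Wild-type replicate 2 of 129Sv (3.91) was the highest of its group for Gli1 and Gli2. The part of RNA degradation in these values was not tested. Without B6 knockout replicate 3, Gli1 was -0.74 (adjusted p = 0.0413) and Gli2 1446086_s_at -0.59 (adjusted p = 0.0475). Both calls also passed with the Actb ratio as a covariate.

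Over all 12 arrays, Gli1 and Gli2 varied together, with Pearson r of 0.922 and 0.912 between the Gli1 probe set and those of Gli2. The 3 probe sets of Gas1 correlated at 0.909 to 0.928. These values describe arrays that share 4 groups and a common normalisation. The arrays of raised Actb ratio named above were the highest of their groups for both Gli1 and Gli2. By the same measure the tested probe sets of other genes most like Dhh were those of Tmem147 (r = 0.881), Surf4 (0.880) and Dock9 (0.877). For Ptch1 they were Cacna1c (0.897), 1700025G04Rik (0.884) and Agap1 (0.876). For Gli1 they were Vstm2b (0.956), Gramd1a (0.942) and Myl6 (0.928), and for Hhip 1438083_at they were Col14a1 (0.875), Stox2 (0.846) and Pcsk5 (0.844).

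The rest of the pathway was read through 52 further genes in 5 lists, of which 88 probe sets of 42 genes were tested. In 129Sv, 11 of the 88 passed between knockout and wild type (12.5%, against 5.24% of all probe sets), 5 higher and 6 lower. In B6, 7 passed, all lower (7.95%, against 4.61%). Several probe sets of 1 gene enter these shares. The calls in 129Sv read Ccnd1 and Mycn, higher, and Ccnd2 and Foxf1, lower, and those in B6 read Ccnd2, Foxf1 and Intu. With 1 probe set per gene the counts were 4 and 3, and no share of all genes is given beside them. All 11 calls in 129Sv and 6 of the 7 in B6 fell in the list of 9 genes reported as Hedgehog targets in other tissues. Of these 9 genes, 6 were tested, through 22 probe sets, and Ccnd2 alone gave 5 of the calls in each strain. The list was chosen with earlier results of these data known. Whether these calls reflect Hedgehog signalling was not tested. The lists of ligand release, of other ligands and reception, and of Gli regulators had no call in either knockout comparison. Shh, the ligand of limb and neural tube, ran from 63.8 to 152 and passed in no comparison.

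Foxf1, a forkhead factor of visceral mesenchyme that Hedgehog signals induce, fell in both strains. It measured 208.3, 249 and 209 in the 129Sv wild type and 50.2, 119 and 139 in the knockout, without overlap, and fell by 1.23 on the log2 scale, at -1.23 ± 0.31 (limma, adjusted p = 0.0356). In B6 it measured 110.2, 128 and 125 in the wild type and 14.6, 11.2 and 9.44 in the knockout, which lies under the intensity of 16 where the arrays carry signal. Against that floor the B6 knockout was at least 7.55-fold lower (limma, adjusted p = 5.35e-05), and between the knockouts 129Sv was at least 5.88-fold higher (adjusted p = 2.02e-05). Both of these calls passed with any 1 array left out. In the B6 comparison the germ cell markers Dnd1 and Mael and the Sertoli cell markers Cst9 and Sox8 also fell, the epithelial markers Cdh1, Epcam and Krt8 rose, and so did Cyp11a1 of the fetal Leydig list, Wnt4 of the ovarian list and Tubb3 of the neuronal list. By its brightest probe set Cyp11a1 did not pass. The peritubular and interstitial list had no call there. The part of these shifts in the Foxf1 result was not tested. The difference of the knockout effects did not pass (limma, adjusted p = 0.0638), and with the B6 knockout under 16 no size is given for it. The 129Sv call was lost without 129Sv wild-type replicate 1, 2 or 3, 129Sv knockout replicate 1 or 2, or B6 wild-type replicate 3, at -1.41 to -0.78 (adjusted p from 0.0512 to 0.124), and with the title number before the strain code as a covariate. Over its 26 alternative fits the adjusted p reached 0.202.

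The cyclins of the list moved in opposite directions. Ccnd2, a D-type cyclin of dividing cells, fell by 5 of its 7 tested probe sets in 129Sv, with log2 differences from -0.99 to -0.44, and by 5 of 7 in B6, from -0.81 to -0.44. Its probe set 1416122_at measured 869, 765 and 812 in the 129Sv wild type and 417, 425 and 483 in the knockout, a difference of -0.89 (limma, adjusted p = 0.00304). In B6 that probe set gave -0.43 (adjusted p = 0.116). Ccnd1, another D-type cyclin, rose in 129Sv by 3 probe sets. Its probe set 1417419_at measured 18.4, 22.04 and 18.04 in the 129Sv wild type and 62.5, 51.6 and 34.6 in the knockout, a difference of 1.31 ± 0.25 (limma, adjusted p = 0.00824), against 0.72 in B6 (adjusted p = 0.127). The other Ccnd1 probe sets, 1417420_at and 1448698_at, gave 1.30 and 0.69 in 129Sv (adjusted p = 0.0252 and 0.0148). The former was lost on leaving out any wild type of 129Sv or its knockout replicate 1 or 2, and the latter on leaving out replicate 2 of either genotype or wild-type replicate 3 of 129Sv (adjusted p up to 0.126 and 0.076). In 129Sv, 3 of the 5 Ccnd2 calls were lost in 2 to 7 of the 12 fits that left out an array, those without wild-type replicate 1 or knockout replicate 1 of 129Sv among them (adjusted p up to 0.192). In B6 each Ccnd2 call was lost in 3 to 11 of these fits, among them those without B6 wild-type replicate 2 or 3 or B6 knockout replicate 2, and the adjusted p reached 0.188. With any 1 array left out, 1416122_at and 1417419_at passed in 129Sv throughout (highest adjusted p = 0.0217 and 0.049), and both calls were lost once the title number entered the fit.

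Mycn, a proto-oncogene of progenitor cells, rose in 129Sv by a pair of probe sets. Its probe set 1417155_at measured 1079.7, 998 and 1057 in the wild type and 1507, 1785 and 1603 in the knockout, a difference of 0.64 (limma, adjusted p = 0.0241), and 0.03 in B6. The call was lost without any 1 of the 6 arrays of 129Sv, at 0.57 to 0.70 (adjusted p from 0.0525 to 0.112). The second, 1425922_a_at, gave 0.78 in 129Sv (limma, adjusted p = 0.0364) and was lost in 8 of 12 such fits, those without any 129Sv array, B6 wild-type replicate 3 or B6 knockout replicate 2 (adjusted p up to 0.17). Both calls were also lost with the title number as a covariate. Intu, a planar polarity protein needed to build cilia, was the only gene outside the target list to pass within a strain. Its probe set 1458595_at measured 25.9, 25.7 and 54.2 in the B6 wild type and 12.1, 11.1 and 12.7 in the knockout, at least 2.06-fold lower (limma, adjusted p = 0.0291). In 129Sv it gave -1.10 ± 0.35 (limma, adjusted p = 0.097). The other tested probe sets of Intu, 1432781_at, 1444272_at and 1454350_at, did not pass within either strain. The B6 call was lost without B6 wild-type replicate 3 or B6 knockout replicate 2 (adjusted p = 0.0845 to 0.149).

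**Figure D5:**
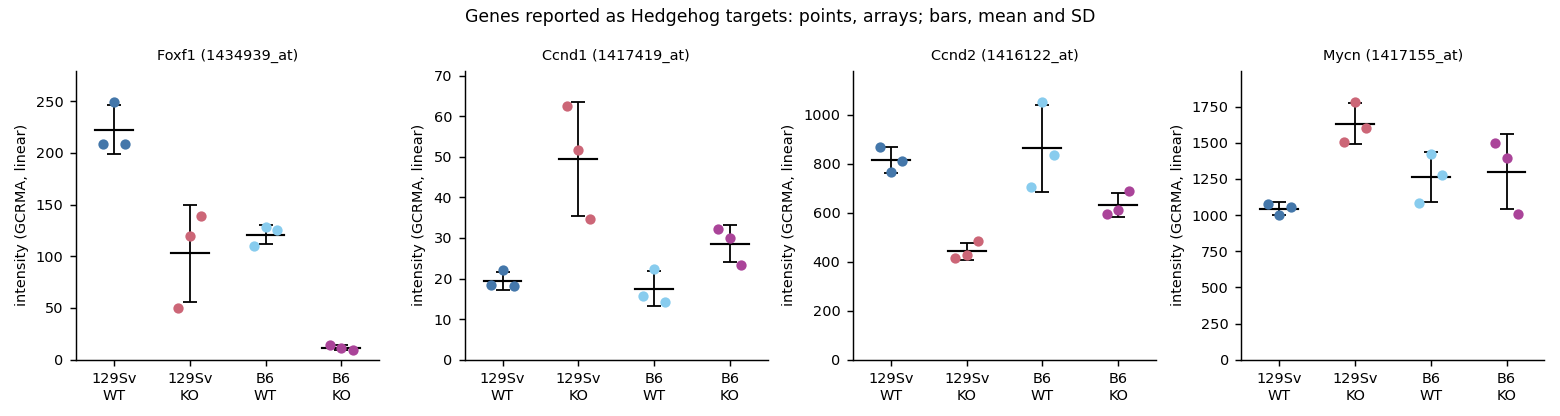
Linear GCRMA intensity (vertical axes, from 0) of 4 genes reported as Hedgehog targets in 129Sv and B6 wild-type (WT) and Dmrt1 knockout (KO) testes; points are arrays, bars the mean and SD of 3 arrays. Foxf1 is lowest in the B6 knockout, at 9.44 to 14.6, and Ccnd1 1417419_at is highest in the 129Sv knockout, at 34.6 to 62.5.

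Averaged over the strains, 18 of the 88 pathway probe sets passed (20.5%, against 9.76% of all probe sets), 6 higher and 12 lower. Beside the targets they included Stk36, a kinase that acts with Gli proteins, at -0.86 ± 0.20, and Kif3a 1449841_at, a motor subunit of ciliary transport, at -0.64 ± 0.15 (limma, adjusted p = 0.014 and 0.0163). The other probe sets of Kif3a gave -0.49, which passed, and -0.07 and 0.10, which did not (adjusted p = 0.0376, 0.81 and 0.643). Dzip1, a ciliary regulator of Gli3, passed by 1 probe set, 1452793_at, whose 129Sv means lie under 16, so that no size is given. Sfrp1, a secreted Wnt antagonist, rose by 1 of its probe sets, 1416594_at, at 0.38 ± 0.11 (adjusted p = 0.0453). For the difference of the knockout effects 0 of the 88 passed by limma, against 0.298% of all probe sets.

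Between strains, pathway genes other than the 9 members differed in both genotypes. Among wild types 16 of 88 probe sets passed (18.2%, against 13.6%), 12 higher and 4 lower in 129Sv, and among knockouts 36 of 88 (40.9%, against 30.0%), 24 higher and 12 lower. Those lower in 129Sv read Bcl2, Dzip1, Gsk3b and Sfrp1 among wild types. Among knockouts they read the same genes and Boc, Ccnd2, Cdon and Kif3a. Sfrp1 1438620_x_at was lower in both genotypes and passed with any 1 array left out. Kif7, the ciliary kinesin that scaffolds Gli proteins, measured 298, 385 and 294 in the 129Sv wild type and 143, 122 and 128 in the B6 wild type. It was 2.47-fold higher in 129Sv (limma, adjusted p = 0.000295), and 2.73-fold higher among knockouts (adjusted p = 6.51e-05), passing with any 1 array left out. Of the 15 tested probe sets of the primary cilium list, 5 were higher in 129Sv among wild types, against 8.22% of all probe sets. Among knockouts 9 were higher, against 17.2% of all, and 1 was lower, against 12.7%. Those 9 read 6 genes, with several probe sets of Intu among them. Ift122 passed in both genotypes by 1441259_s_at and in neither by 1427239_at. Among those that passed, the largest wild-type differences were those of Ift122 and Ift172 of the intraflagellar transport machinery, at 0.88 ± 0.18 and 0.83 ± 0.20, and Kif3a 1449841_at at 0.80 ± 0.22 (limma, adjusted p = 0.00596, 0.0161 and 0.0258). The probe sets of Kif3a disagreed among knockouts, where 1449841_at was higher in 129Sv by 0.72 ± 0.22 and 1436560_at was lower, at -0.55 ± 0.15 (limma, adjusted p = 0.023 and 0.0141).

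Among the Gli regulators Efcab7, a ciliary anchor of the Evc complex, was higher in 129Sv by 1.10 ± 0.27 in wild type and 1.47 ± 0.27 in knockout (limma, adjusted p = 0.0162 and 0.00145). Disp1, which releases lipid-bearing ligand from the secreting cell, was higher in 129Sv by its probe set 1435132_at. The differences were 1.00 ± 0.25 and 0.92 ± 0.25 (limma, adjusted p = 0.0189 and 0.0152), and the other tested probe set, 1434795_at, passed in neither genotype. Gpc3, a glypican that competes with Patched for ligand, was higher by 0.62 ± 0.14 and 0.69 ± 0.14 (adjusted p = 0.00869 and 0.00236). Boc and Cdon, the co-receptors that act beside Gas1, passed among knockouts and not among wild types, and the test of the difference between these effects passed for neither (limma, adjusted p = 0.54 for Boc 1426869_at and 0.522 for Cdon). Boc 1426869_at measured 1164, 854 and 972 in the 129Sv knockout and 1421, 1469.9 and 2941 in the B6 knockout, a difference of -0.89 (limma, adjusted p = 0.0101). Cdon measured 516, 358 and 440.6 against 643, 559 and 899, a difference of -0.66 ± 0.18 (adjusted p = 0.0161), and was lost without 129Sv knockout replicate 2 (adjusted p = 0.0678). In both co-receptors B6 knockout replicate 3 was the highest array. Single arrays also decided some of these calls. Among wild types, Disp1 was lost without any 129Sv wild-type array or B6 wild-type replicate 1 (adjusted p up to 0.0876), and Efcab7 without 129Sv wild-type replicate 1 or 3 or B6 wild-type replicate 1 or 2 (up to 0.0744). Ift172 was lost without 129Sv wild-type replicate 2 or B6 wild-type replicate 1 (up to 0.0848), and Kif3a without 129Sv wild-type replicate 2 or 3 or B6 wild-type replicate 1 or 2 (up to 0.109). Among knockouts, Disp1 was lost without 129Sv knockout replicate 3 (adjusted p = 0.0772).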

How the data were processed

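The authors deposited 1 table of probe set intensity values on a linear scale, made with GCRMA (background correction by probe sequence, quantile normalisation and summary of probes) of a version not given in the sources used here, per the submitters' processing notes. Log2 was taken of the 45101 values of each array. Probe sets were named from the platform annotation with symbols updated through RefSeq (34958 had 1 gene, 932 several and 9211 none, and only the first were named), and the 64 control probe sets were left out.

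All 12 arrays entered 1 linear model of the 4 group means (limma 3.58.1, R 4.3.3, lmFit and trended eBayes with 8 residual and 5.28 prior degrees of freedom) for the 24820 probe sets with a log2 value of at least 4 on at least 3 arrays. P-values were adjusted by Benjamini-Hochberg over all of them, at 0.05, and intervals are at 95%. On simulated data with 200 of 24820 probe sets changed, the fit called 6% to 16% of planted log2 differences of 0.5 and 60% to 66% of those of 1. More probe sets than that were called in every comparison of 1 group with another here, most of all between strains. The Benjamini-Hochberg cut depends on that share, so these rates do not carry over directly. A difference of the smaller size that did not pass may therefore have been missed. The number of arrays, 3 a group, limits the precision. Where a group mean lay under a log2 value of 4, a fold was taken against 4 and is given as "at least".

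The members, gene lists and tests were chosen with earlier results of these data known. Named were all member probe sets, pathway genes called in a knockout comparison within a strain, up to 3 further pathway genes per list and comparison with the largest difference, the 3 probe sets most like each of Dhh, Ptch1, Gli1 and Hhip, and marker genes that moved. Shh, Boc 1426869_at and the arrays printed for Kif7 were chosen after their values were seen. Groups and replicate numbers came from the sample descriptions, and no array pair was identical.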

Additional observations from a re-analysis of the deposited data

How the results depend on the processing

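Of 102 member results (17 probe sets in 6 comparisons), 78 of the 94 that did not pass also passed under no alternative, and the 8 that passed kept their sign throughout. Of these 8, 1 passed under every alternative, Gas1 1448494_at between wild types. Depth has no counterpart on arrays, and the 5 members under an intensity of 16 have no measured level. The cause of the changes below was not tested.

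Of the member counts, the 1 call for the knockout in 129Sv became 0 with no filter, with 1 probe set per gene, with the mean of a gene's probe sets, with no variance trend, with the title number as a covariate and at 2-fold or more, 2 with only the groups compared or without the 2 arrays of the highest Actb ratio, 3 with the Actb ratio as a covariate and 4 with array weights; with each array left out it was 0 to 1. The 0 in B6 became 1 with array weights. The 0 for the difference of effects and for the average became 1 and 3 with array weights and 0 to 1 with each array left out. The 3 between wild types became 1 with 1 probe set per gene, with the mean and at 2-fold or more, 5 without the 2 Actb arrays and 6 with array weights, and 1 to 4 with each array left out, the 1 being without 129Sv wild-type replicate 2. The 4 between knockouts became 2 with median centring, with only the groups compared and with the replicate block, 0 at 2-fold or more, 5 with a filter at a log2 value of 6, quantile normalisation or the Actb covariate, 6 with array weights, and 0 to 4 with each array left out, 0 without 129Sv knockout replicate 2 and 1 without replicate 3.

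Of the pathway counts, the 11 for 129Sv became 4 with 1 probe set per gene or their mean, 0 with the title number, 3 at 2-fold or more and 4 to 12 with each array left out. The 7 for B6 became 3 with no filter, with 1 probe set per gene and without the 2 Actb arrays, 4 with the mean, with a floor at a log2 value of 4 and with no variance trend, 21 with array weights, 1 with only the groups compared, 2 with the Actb covariate and at 2-fold or more, and 1 to 8 with each array left out. The 0 for the difference of effects became 1 with 1 probe set per gene and in both Actb settings, 3 with array weights and 0 to 1 with each array left out. The 18 for the average became 6 and 7 at gene level, 10 with the title number and 3 at 2-fold or more. The 16 between wild types became 28 with array weights, 4 at 2-fold or more and 7 to 22 with each array left out, and the 36 between knockouts became 19 and 22 at gene level, 23 with only the groups compared and 7 at 2-fold or more.

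Replicate numbers are shared between wild type and knockout, but deviations of same-numbered arrays correlated at -0.51 to 0.11, and the labels do not say that a number marks a shared litter or day. In B6, wild-type and knockout replicates 1 and 2 also share the first number of their titles, whose meaning is not given. As a random block it had a consensus correlation of 0.0795, left the member counts as they were, and made the B6 pathway count 8, with Ccnd1 1448698_at gained. With the replicate block the Foxf1 and Mycn calls in 129Sv were lost, the pathway counts were 5 in 129Sv, 1 in B6 and 8 between wild types, and the member count between knockouts was 2. Counts over all probe sets ranged over the alternatives from 280 to 3169 in 129Sv, 394 to 4691 in B6, 16 to 1358 for the difference of effects, 690 to 5564 for the average, 1499 to 6430 between wild types and 2806 to 11214 between knockouts, each highest with array weights. The title number could not be fitted for B6 or between strains, where it does not vary within a strain or follows it.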
